A study of Rattus norvegicus with 16 samples.

Results

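The most abundant transcripts of the control rat kidney were chosen by their measured level, as the 50 genes with the highest mean TPM over the 4 control libraries, out of 32623 genes measured. TPM is the abundance of a transcript relative to all others in the same library, corrected for transcript length, so a gene's TPM is its share of the transcript pool. The control values thus chose the genes and are given as a description. Bulk RNA-Seq was performed on polyadenylated RNA from kidneys of Sprague-Dawley rats in 4 groups of 4 libraries each. The study calls the samples whole-kidney tissue, and its methods took RNA from a small frozen amount of each. Which part of the kidney that amount held is not stated. Control rats were sham operated. DOCA rats had a kidney removed and then received deoxycorticosterone acetate, an aldosterone precursor, with salt in the drinking water. Finerenone rats and Spironolactone rats had the same operation, DOCA and salt, plus the named drug. All libraries carry an age label of 6 weeks, and in the study's methods that interval is the time of treatment. Each comparison with Control therefore covers the operation, DOCA and salt together, and in the drug groups also the drug. By the study's methods DOCA rats were also given vehicle by daily gavage, which is not stated for sham rats. The first part of each library code occurs in 1 group only, so it cannot be told apart from the group, and the labels do not say whether libraries of a group were processed apart.

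DOCA with salt is a model of mineralocorticoid hypertension with kidney damage. Finerenone, which is not a steroid, and spironolactone, which is, both block the mineralocorticoid receptor. The transcript pool of a kidney is uneven: in this tissue, dense in mitochondria and dominated by proximal tubules, a few genes hold much of the pool, and because shares add to a fixed total, a fall in their share is a rise in that of all other genes. In whole tissue, fewer cells of a type and less RNA per cell cannot be told apart.

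Names could be attached to few of these genes. The deposited tables carry Ensembl identifiers alone. A name was resolved for 1 of the 50 genes, Mt1 (metallothionein 1, a small protein that binds zinc and copper), at rank 36. The other 49 are called here by their rank in mean control TPM. Because 2% of the genes had a name where 80% was required, the planned grouping of the genes by function could not be used. Total estimated counts ranged from 7063158 to 8056929 in 15 libraries and reached 10932887 in Spironolactone replicate 4. The lowest estimated count of any of the 50 genes in any library was 333. DOCA replicate 4 and Spironolactone replicate 4, taken to be the libraries that the study set aside after principal component analysis because its supporting tables omit them, were left out of group means and tests, and their values are given beside the others where single libraries are listed.

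The control kidney placed nearly as much of its pool in these 50 genes as in all others, and the pool was less concentrated in DOCA and Spironolactone. In Control replicates 1 to 4 the 50 genes summed to 48.1%, 48.5%, 45.5% and 45.3% of TPM. In DOCA replicates 1 to 4 they summed to 36.1%, 39.2%, 35.4% and 34.9%. In Spironolactone the sums were 37.6%, 33.9%, 35.8% and 34.1%, and in Finerenone 44.5%, 48.9%, 43.0% and 45.2%. All DOCA and Spironolactone libraries lay below all Control and Finerenone libraries, whereas the ranges of Control and Finerenone overlapped, as did those of DOCA and Spironolactone. The mean of Control was 46.9% ± 1.71 (SD, n = 4), that of DOCA 36.9% ± 2.02 (SD, n = 3), that of Spironolactone 35.8% ± 1.90 (SD, n = 3) and that of Finerenone 45.4% ± 2.51 (SD, n = 4). The loss was thus 9.98 percentage points in DOCA and 11.1 points in Spironolactone, and the return was 8.53 points from DOCA to Finerenone. These sums have no test because the control libraries chose the genes.

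**Figure D1:**
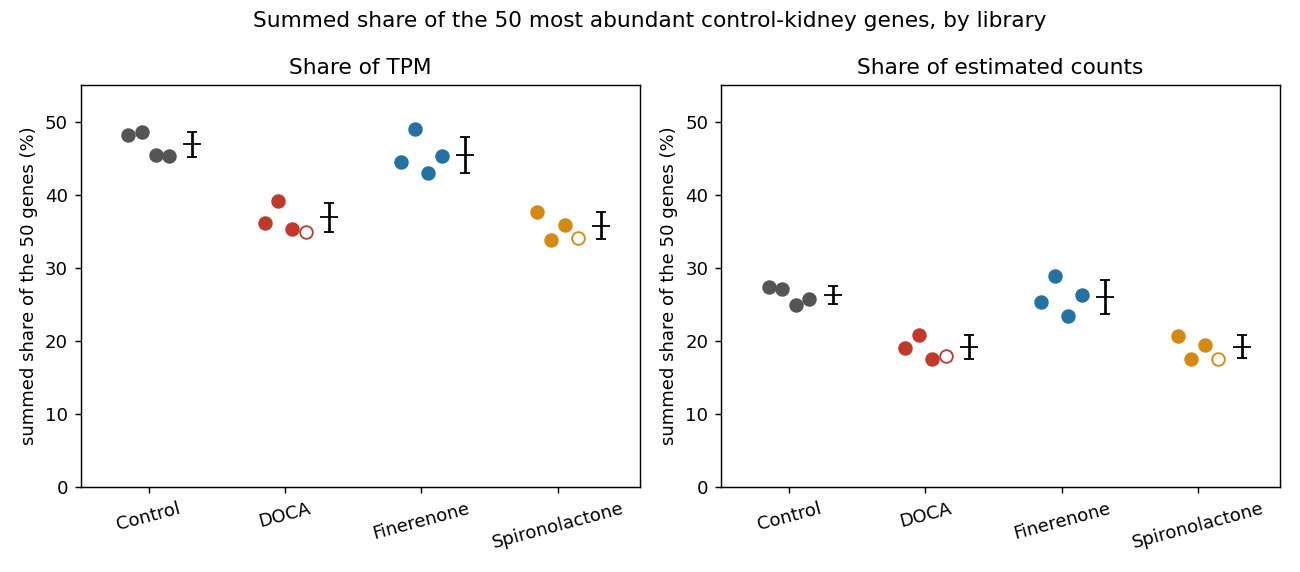
Summed share of the 50 genes (y axis, %) in each of the 16 libraries by group, as share of TPM (left) and of estimated counts (right). Each point is a library, open points are the 2 libraries left out of the means, and bars give the mean and SD of the others. On the TPM scale the highest DOCA library, at 39.2%, is below the lowest Finerenone library, at 43.0%.

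The share of estimated counts, which is not corrected for length, was also lower in DOCA and Spironolactone than in Control and Finerenone, with smaller values and no difference between DOCA and Spironolactone beyond their spread. Control stood at 26.3% ± 1.19 (SD, n = 4), DOCA at 19.1% ± 1.67 (SD, n = 3), Spironolactone at 19.2% ± 1.61 (SD, n = 3) and Finerenone at 26.01% ± 2.29 (SD, n = 4). The choice of genes does depend on the scale: 23 of the 50 were also among the 50 genes with the highest control share of counts. The members were short. Their median estimated count per unit of TPM, which follows the effective length of the transcript, was 0.208 of that of the median gene. A value below 0.1 of the median gene was found for 17 of the 50, or 34%, against 0.980% of the 4488 genes with at least 200 counts in every library.

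The 10 highest genes accounted for most of the loss and most of the return. In Control, ranks 1 to 10 held 33.8% ± 1.63 (SD, n = 4) of TPM, against 25.2% ± 1.78 (SD, n = 3) for DOCA, a difference of -8.64 points. Ranks 11 to 25 went from 7.71% to 6.39%. Ranks 26 to 50 together held 5.31% ± 0.250 (SD, n = 4) of the Control pool and 5.29% ± 0.136 (SD, n = 3) of the DOCA pool, with 5.33% in Finerenone and 5.28% in Spironolactone, differences smaller than the spread between libraries on the TPM scale. As a share of counts the same genes did differ: they held 2.77% to 2.91% in Control and 2.76% to 2.82% in Finerenone, above 2.37% to 2.51% in DOCA and 2.40% to 2.64% in Spironolactone, without overlap. Between Control and DOCA, 36 of the 50 genes had a lower mean share and 14 a higher one. The falls summed to -10.7 points and the rises to 0.716 points, and 9 genes made up 80% of the falls. In Spironolactone 35 genes were lower and 8 made up 80% of the falls. From DOCA to Finerenone 32 genes were higher, and 9 made up 80% of the rises.

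**Figure D2:**
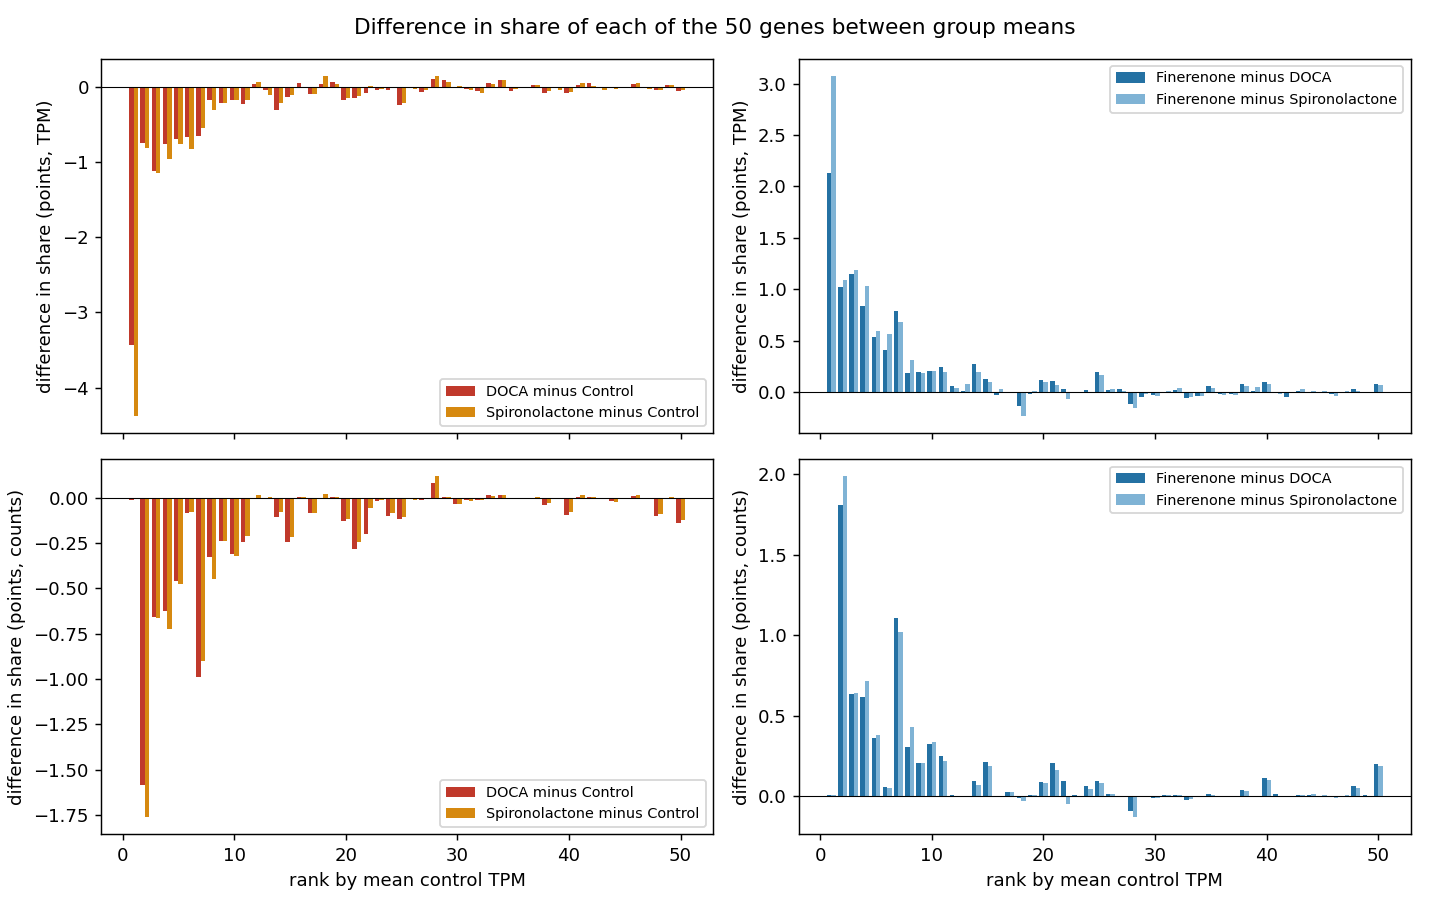
Difference in share between group means (y axis, percentage points) for each of the 50 genes, ordered by rank in control TPM (x axis), for the loss (left) and the return (right), on the TPM scale (top) and the count scale (bottom). The gene ranked 1 gives the longest bars on the TPM scale, -3.43 points in DOCA, and nearly none on the count scale, where the gene ranked 2 leads.

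The gene ranked 1 (ENSRNOG00000033299) was the largest contributor on the TPM scale, and the contributor whose values depended most on the length used. Its share was 7.86%, 8.63%, 7.79% and 6.62% in Control replicates 1 to 4 and 4.00%, 3.98%, 4.89% and 3.84% in DOCA. It was 6.00%, 7.17%, 6.36% and 6.14% in Finerenone and 4.05%, 2.83%, 3.14% and 3.04% in Spironolactone. No DOCA or Spironolactone library reached the lowest Control or Finerenone library. The gene alone made up 34.4% of the net loss in DOCA, 39.6% of that in Spironolactone and 24.95% of the return from DOCA to Finerenone.

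That share rested on few counts. A mean of 2268 estimated counts per control library, 0.0307% of all counts, carried 7.73% of TPM, since the count per unit of TPM was 0.00207 of that of the median gene. This ratio also differed 2.93-fold between libraries, from 0.00134 in DOCA replicate 2 to 0.00394 in Spironolactone replicate 1, whereas for the gene ranked 2 it differed 1.01-fold. The high ratios were not spread evenly over the groups. The ratio was 0.00367 in DOCA replicate 1 and 0.00387 in Spironolactone replicate 3, and at most 0.00225 in any Control or Finerenone library. As a share of counts, the gene ranked 1 was at 0.0267% to 0.0394% in Control and at 0.0106% to 0.0273% in DOCA, and these ranges overlapped. With a single length per gene in all libraries, an alternative chosen after the values were seen, its part of the DOCA loss was -2.29 points in place of -3.43, or 25.3% of the net loss. Its part of the loss in Spironolactone was then -1.84 points in place of -4.38, or 21.3%, and its part of the return from DOCA to Finerenone 1.23 points in place of 2.13, or 15.7%. Between Spironolactone and Finerenone the difference was 0.780 in place of 3.08 points. The shares were then 6.71%, 2.74%, 4.80% and 3.99% in DOCA replicates 1 to 4 and 7.21%, 2.84%, 5.56% and 3.29% in Spironolactone. Control was at 6.41% to 8.53% and Finerenone at 5.63% to 6.43%. DOCA replicate 1 and Spironolactone replicate 1 thus lay within Control and above Finerenone, and the groups overlapped. Without this gene in either the sum or the total, the loss in DOCA was -8.37 points and the return 7.63 points. Across the 50 genes the ratio differed more than 1.5-fold between libraries for 7, at ranks 1, 12, 13, 16, 27, 29 and 39. DOCA replicate 1 and Spironolactone replicates 1 and 3, all used in the group means, had the highest ratios for each of these.

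**Figure D3:**
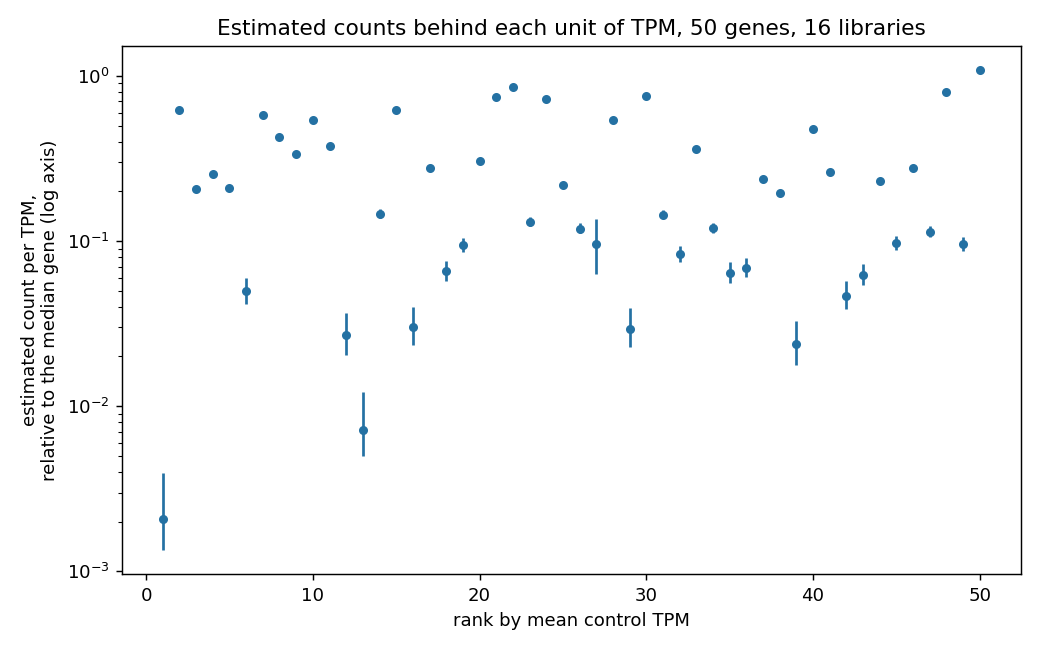
Estimated count per unit of TPM of each of the 50 genes relative to the median gene of the same library (y axis, log scale), by rank in control TPM (x axis). Points are medians over 16 libraries and lines run from the lowest to the highest library. The gene ranked 1 has the lowest median, 0.00207, and the longest line.

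Ranks 2 to 7 made up most of the remaining loss and did so on both scales. The gene ranked 2 (0.618 of the median gene's count per TPM) went from 4.72%, 5.14%, 4.79% and 4.41% of TPM in Control replicates 1 to 4 to 4.08%, 4.39%, 3.58% and 3.44% in DOCA. It was at 4.72%, 5.33%, 5.11% and 5.01% in Finerenone and at 4.30%, 3.52%, 4.04% and 3.37% in Spironolactone. All its DOCA and Spironolactone values were below all Control and Finerenone values. Its loss in DOCA was -0.749 points of TPM, but -1.58 points of counts, the largest of the 50 on that scale and 22.1% of the net loss of counts.

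The gene ranked 3 (ENSRNOG00000031979) had the second largest loss on the TPM scale, -1.11 points. Its share was 5.12%, 4.78%, 4.48% and 4.21% in Control, 3.53%, 3.80%, 3.27% and 3.27% in DOCA, 4.61%, 5.17%, 4.24% and 4.71% in Finerenone and 3.69%, 3.21%, 3.59% and 3.37% in Spironolactone. The values of Control and Finerenone did not overlap those of the other groups. The differences between DOCA and Control at ranks 4, 5, 6 and 7 were -0.760, -0.696, -0.670 and -0.654 points. The mean shares of ranks 4, 5 and 6 were 4.30%, 3.85% and 2.51% in Control, 3.54%, 3.15% and 1.84% in DOCA, 4.38%, 3.69% and 2.25% in Finerenone and 3.35%, 3.096% and 1.69% in Spironolactone. In Finerenone the mean of rank 4 was thus above that of Control and those of ranks 5 and 6 below it, but the libraries of these groups overlapped at each rank. Together the 7 highest genes made up 81.0% of the net loss in DOCA, 85.0% of that in Spironolactone and 80.6% of the return from DOCA to Finerenone. The gene ranked 7 had the second largest loss of counts, -0.987 points, with 1.54% to 2.704% of TPM in Control, 0.989% to 1.55% in DOCA, 1.90% to 2.23% in Finerenone and 0.959% to 1.53% in Spironolactone. That place leaned on Control replicate 4: the estimated counts of this gene in Control replicates 1 to 4 were 149571, 153487, 165927 and 238002. The order of the losses of counts without that library is not reported here. For the gene ranked 7 Control overlapped DOCA by 1 library, and Finerenone was above every DOCA and Spironolactone library. Ranks 8, 9, 10 and 11 had smaller losses in DOCA, of -0.175, -0.215, -0.174 and -0.223 points, and Finerenone means above those of DOCA by 0.188, 0.191, 0.208 and 0.248 points.

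The genes with the largest relative losses were not all among the leaders. The gene ranked 25 was furthest below its control share: its DOCA mean was 17.2% and its Spironolactone mean 26.7% of the control mean, against 83.5% in Finerenone. Its share was 0.371%, 0.326%, 0.345% and 0.142% in Control, 0.0870%, 0.0304%, 0.0353% and 0.00980% in DOCA, 0.422%, 0.225%, 0.160% and 0.182% in Finerenone and 0.0961%, 0.0941%, 0.0466% and 0.0815% in Spironolactone. No library of DOCA or Spironolactone reached the lowest of Control, but the gene varied most of the 50 between libraries of a group, with a coefficient of variation of 35.1% in Control and 61.6% in DOCA against group medians of 9.59% and 9.19%. It went from rank 25 in Control to rank 255 in DOCA and 167 in Spironolactone, the furthest of the 50, and stood at 29 in Finerenone. The genes ranked 14, 20 and 40 had DOCA means of 56.4%, 52.7% and 61.4% of Control, and Finerenone means of 96.4%, 86.4% and 111.7%. By comparison, the gene ranked 1 had a DOCA mean of 55.5% and a Finerenone mean of 83.1% of Control.

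Over the 50 genes, the mean share was under 90% of the control mean for 27 genes in DOCA, 31 in Spironolactone and 16 in Finerenone. It was over 110% for 11, 9 and 8 genes. The median gene stood at 87.9% of Control in DOCA, 84.3% in Spironolactone and 98.2% in Finerenone. In DOCA 16 genes lost at least 0.1 points, with a summed difference of -9.86 points. All 16 had a lower mean in Spironolactone than in Control and a higher one in Finerenone than in DOCA. Their low DOCA and high Control means chose these genes, which favors both outcomes, so the count is a description. Of the 16, 7 had a Finerenone mean at or above Control. Of the 50, 39 were also among the 50 highest genes by mean TPM of DOCA, 39 of Spironolactone and 47 of Finerenone.

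**Figure D4:**
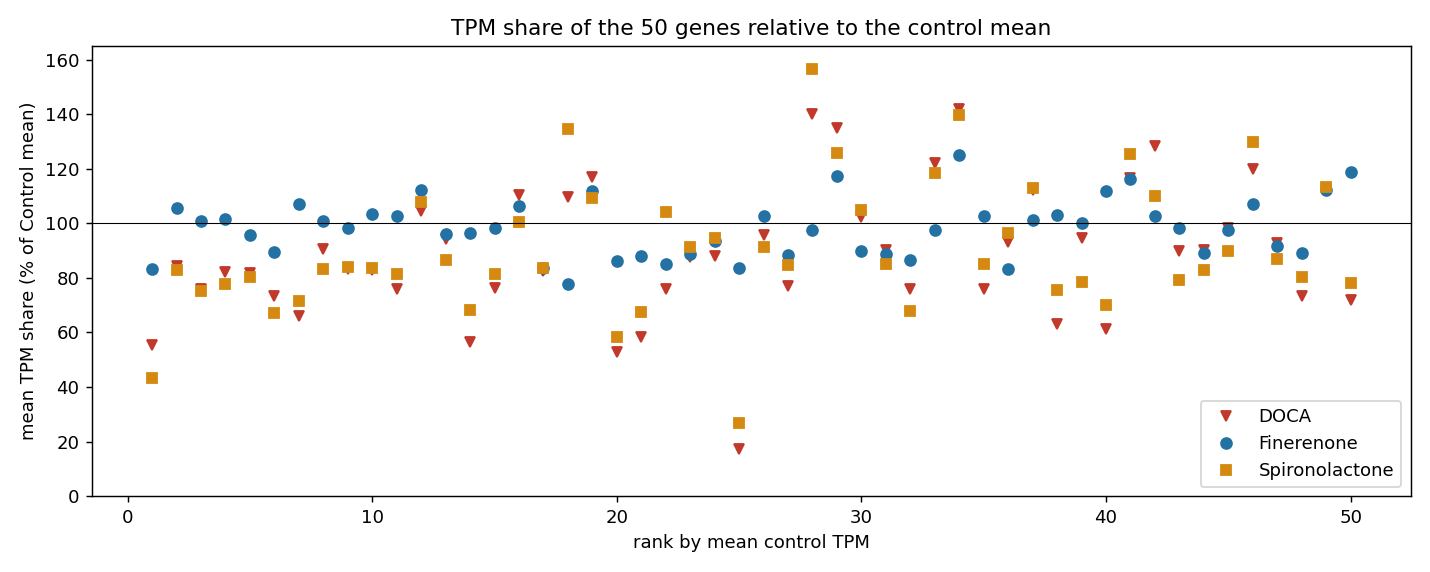
Mean TPM share of each of the 50 genes in DOCA, Finerenone and Spironolactone as a percentage of its control mean (y axis), by rank in control TPM (x axis). The line marks the control mean. Among ranks 1 to 11 every DOCA and Spironolactone mean is below 100%, and the lowest points are the gene ranked 25, at 17.2% and 26.7%.

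Counts of genes whose TPM shares did not overlap between groups, here and in the later comparisons, were made over the 14 libraries used in tests. In DOCA compared with Control, the TPM shares did not overlap and were lower for 19 of the 50 genes, where 4.02% of the 13793 genes tested on this scale were lower in this way. They were higher without overlap for 5 genes, against 54.2% of all genes. In Spironolactone compared with Control, 18 were lower, against 3.01%, and 6 higher, against 53.8%. Because the genes were chosen for being high in Control, these counts describe the genes and test nothing. In Finerenone compared with Control 5 were lower, at ranks 17, 18, 20, 31 and 32, against 1.36% of all genes. No rank was higher without overlap there, and the share of all genes that was higher in this way is not reported here.

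A minority of the 50 genes held or gained share in DOCA. The gene ranked 28 (ENSRNOG00000009439) gained most, 0.109 points, with 0.264%, 0.244%, 0.315% and 0.259% in Control and 0.405%, 0.359%, 0.375% and 0.428% in DOCA. It was at 0.271%, 0.243%, 0.276% and 0.267% in Finerenone and between 0.339% and 0.471% in the Spironolactone libraries, so Control and Finerenone lay below the other groups without overlap. The gene ranked 34 (ENSRNOG00000013874) followed with a gain of 0.0936 points, and then ranks 29, 19 and 16 with 0.0895, 0.0635 and 0.0588 points. The gains at ranks 28 and 34 were not seen relative to the typical gene. On the edgeR scale, where libraries are scaled by the trimmed mean of M values (TMM) so that the median gene is near 0, the log2 fold changes of ranks 28 and 34 in DOCA compared with Control were -0.02 ± 0.09 (SE) and 0.01 ± 0.17 (SE). The median log2 difference of all genes between DOCA and Control was 0.44 on the share scale and 0.02 on the edgeR scale, while for the 50 genes it was -0.18 and -0.69. On the edgeR scale 49 of the 50 had a value below 0 in DOCA, and the gene ranked 34 was the exception.

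Mt1, the gene with a name, had overlapping shares in all groups. It held 0.204%, 0.225%, 0.188% and 0.249% of TPM in Control, 0.163%, 0.245%, 0.196% and 0.218% in DOCA, 0.166%, 0.176%, 0.197% and 0.182% in Finerenone and 0.161%, 0.208%, 0.257% and 0.108% in Spironolactone. Its mean was 93.0% of Control in DOCA, 96.5% in Spironolactone and 83.2% in Finerenone. On the edgeR scale its log2 fold change compared with Control was -0.58 ± 0.15 (SE) in DOCA, -0.38 ± 0.15 (SE) in Spironolactone and -0.38 ± 0.14 (SE) in Finerenone, and that from DOCA to Finerenone was 0.20 ± 0.15 (SE; edgeR adjusted p = 0.367).

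The comparison of Finerenone with DOCA was tested, because the rule that ranked the genes used the control libraries alone. The rule was itself set with the loss and return of share already known, so the test is not independent evidence of that direction. With edgeR on the estimated counts, 22 of the 50 genes were higher in Finerenone than in DOCA and 0 lower, with calls made at an adjusted p below 0.05 and a log2 fold change of 0.5 or more in size. Of all 14628 genes tested, 6.04% were called higher, 7.70% lower and 13.7% in either direction. The median log2 fold change was 0.47 over the 50 genes and -0.03 over all genes. Called genes included 10 of the 11 highest, ranks 2 to 11. The gene ranked 2 rose by 0.72 ± 0.13 (SE; adjusted p = 0.00107, edgeR) and the gene ranked 7 by 1.09 ± 0.21 (SE; adjusted p = 0.00166, edgeR) on the log2 scale. The gene ranked 25 rose most, by 2.67 ± 0.55 (SE; adjusted p = 0.00728, edgeR), and the smallest adjusted p was 4.41e-06, by edgeR, at ranks 20 and 40, with log2 fold changes of 1.10 ± 0.11 and 1.25 ± 0.12 (SE). The gene ranked 1 was not called, with 0.69 ± 0.36 (SE; adjusted p = 0.207, edgeR). With scaling by library size alone, 11 of the 50 were called in place of 22. Those that lost the call included ranks 2, 4, 5, 6, 8, 9 and 10, with log2 fold changes of 0.29 to 0.46.

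On the share scale itself, limma on log2(TPM + 1) called 9 of the 50 higher and 1 lower in Finerenone than in DOCA. Here 1.75% of the 13793 genes tested were called higher and 29.1% lower, and the median log2 difference was 0.11 over the 50 genes and -0.36 over all. Called higher were ranks 1, 7, 14, 20, 21, 25, 38, 40 and 50. The gene ranked 1 was higher by 0.58 ± 0.12 (SE; adjusted p = 0.00269, limma), a call that was lost with a single length per gene. Ranks 2, 3 and 4 had adjusted p of 0.00998, 0.00366 and 0.0125 by limma but missed the minimum of 0.5, at 0.33, 0.41 and 0.31. The gene ranked 28 fell by 0.52 ± 0.10 (SE; adjusted p = 0.00113, limma) on the log2 scale. This call was lost with a single length per gene, without DOCA replicate 1 and without Finerenone replicate 2. The TPM shares of Finerenone and DOCA did not overlap for 15 genes that were higher in Finerenone, against 3.36% of all genes, and 4 that were lower, against 43.2%.

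**Figure D5:**
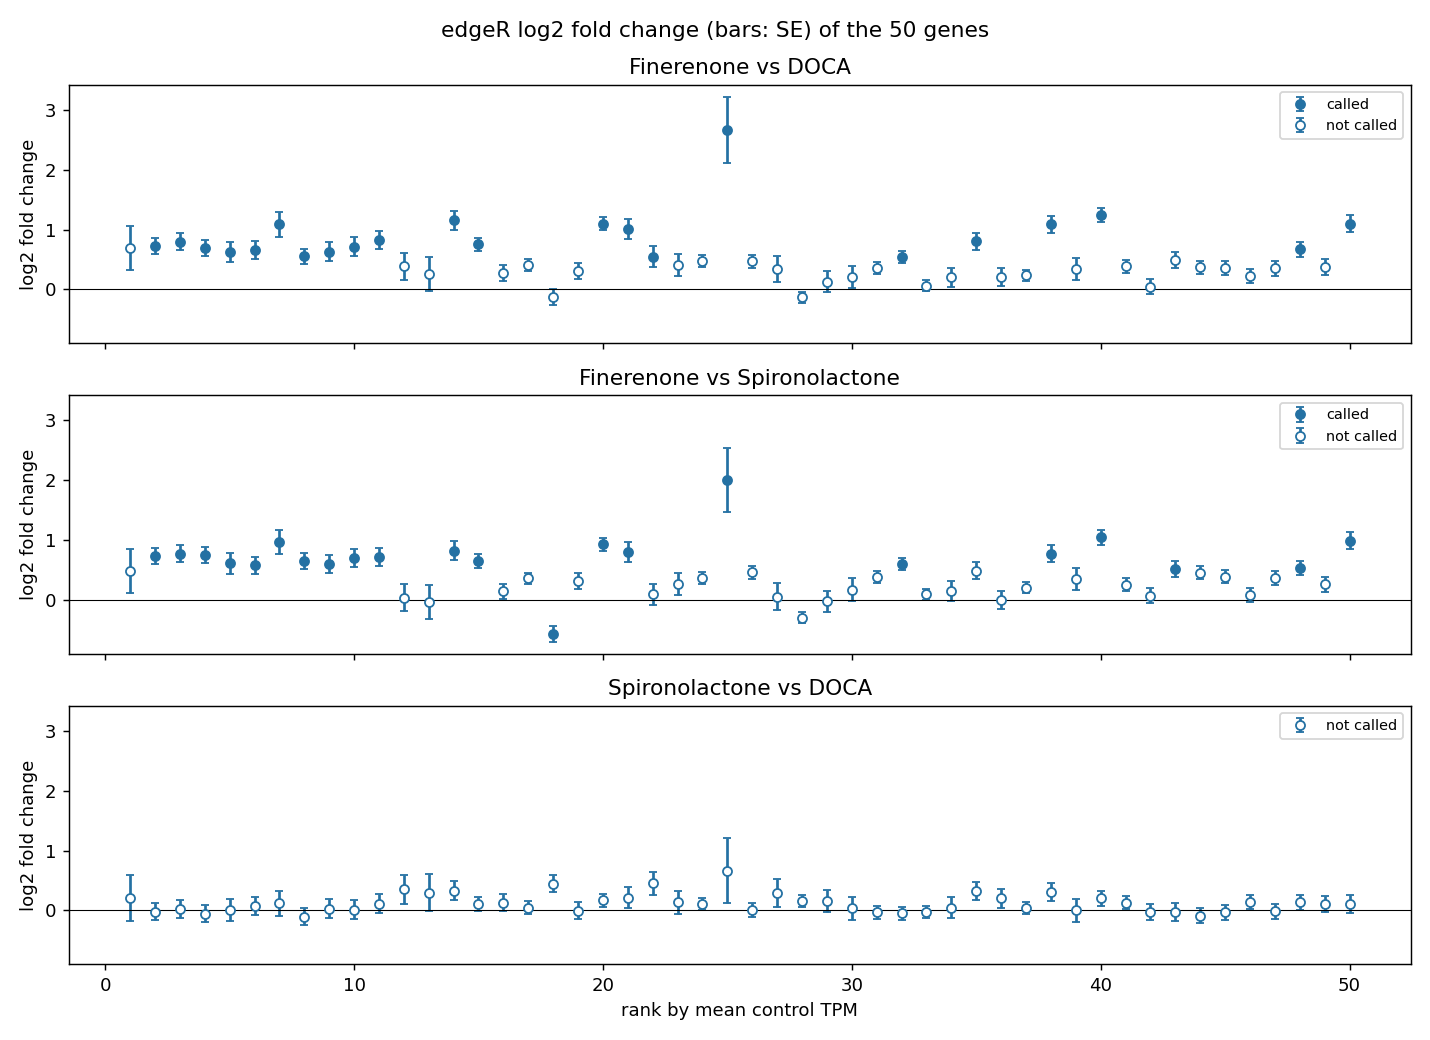
Log2 fold change on the TMM scale from edgeR (y axis) of the 50 genes by rank in control TPM (x axis) in 3 comparisons. Bars are standard errors and filled points are genes called. Finerenone is higher than DOCA for 22 called genes and differs from Spironolactone for 22, and no gene is called between Spironolactone and DOCA.

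Spironolactone and DOCA were not distinguished in these genes. By edgeR 0 of the 50 were called, as were 0 of all 14628 genes, or 0% (578 had an unadjusted p below 0.05), and DESeq2 and limma-voom also called 0 of the 50. By limma on the share scale 0 of the 50 were called and 2 of all genes, or 0.0145%. The log2 fold changes of ranks 2, 3 and 4 were -0.02 ± 0.14, 0.03 ± 0.15 and -0.05 ± 0.14 (SE) by edgeR. Their mean shares were 4.02%, 3.53% and 3.54% in DOCA and 3.95%, 3.50% and 3.35% in Spironolactone. The gene ranked 1 had a log2 difference in share of -0.37 ± 0.13 (SE) between Spironolactone and DOCA, but a log2 fold change of 0.21 ± 0.38 on the edgeR scale, so its direction depends on the scale and neither value was called. In points of TPM, Spironolactone minus DOCA was -0.950 for this gene, and 0.449 with a single length per gene. The TPM shares did not overlap for 1 gene, rank 22, which was higher in Spironolactone, against 4.47% of all genes, and for 0 that were lower, against 4.62%.

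Finerenone was also set directly against Spironolactone, given on the same background of operation, DOCA and salt. The study gave the drugs at different doses by body weight. Of the 50 genes 21 were higher and 1 lower in Finerenone by edgeR, against 4.59% and 6.84% of all genes. The summed share was higher by 9.64 points of TPM and by 6.77 points of counts. The genes ranked 2 and 3 were higher by 0.74 ± 0.13 (SE; adjusted p = 0.00112, edgeR) and 0.77 ± 0.14 (SE; adjusted p = 0.00133, edgeR). The gene ranked 40 was higher by 1.05 ± 0.12 (SE; adjusted p = 3.4e-05, edgeR). The gene ranked 25 was higher by 2.00 ± 0.54 (SE; adjusted p = 0.0267, edgeR), a call lost without Finerenone replicate 1 and without any 1 of the 3 Spironolactone replicates. The exception was the gene ranked 18, with a log2 fold change of -0.57 ± 0.13 (SE; adjusted p = 0.00546, edgeR). Its share was 0.290%, 0.345%, 0.313% and 0.342% in Finerenone and 0.493%, 0.597%, 0.586% and, in the replicate left out, 0.327% in Spironolactone, so the groups overlapped when that library was counted and not over the 14 libraries. With scaling by library size alone, 13 of the 50 were called in place of 22. Those that lost the call included ranks 5, 6, 8, 9, 10 and 11, with log2 fold changes of 0.35 to 0.49. On the share scale limma called 6 of the 50 higher and 2 lower, against 1.11% and 27.8% of all genes, and the call for the gene ranked 1, at 0.96 ± 0.12 (SE; adjusted p = 0.000172, limma), was lost with a single length per gene. The TPM shares did not overlap for 18 genes higher in Finerenone, against 2.16% of all genes, and for 3 lower, against 42.5%. The comparisons with DOCA and with Spironolactone share the Finerenone libraries. The rule was set with the loss in Spironolactone known as well, so this test too is not independent evidence of direction.

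The share that left the 50 genes in DOCA was spread over most of the pool. Among the other 13743 genes with a TPM of at least 1 in at least 3 libraries, 11549, or 84.0%, had a higher mean share in DOCA than in Control. The gains outside the 50 summed to 14.6 points and the losses to -4.63 points, and the 5 largest gains came to 1.38 of the 14.6 points. Spp1 (osteopontin, a secreted phosphoprotein) gained most. Its share was 0.0127% to 0.0345% in Control, 0.752%, 0.821%, 0.827% and 1.90% in DOCA, 0.125% to 0.286% in Finerenone and 0.580% to 1.42% in Spironolactone. It was followed by Mgp (matrix Gla protein), Tmsb4x (thymosin beta 4, which binds actin), a gene with no name resolved at rank 331, and Ctsd (cathepsin D, a lysosomal protease). Because high DOCA values chose these genes, their values in Finerenone are given as a description: the mean share of Spp1 in Finerenone was 0.201%, and the mean went from 0.236% in DOCA to 0.0977% in Finerenone for Mgp, from 0.280% to 0.168% for Tmsb4x and from 0.129% to 0.0487% for Ctsd.

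The markers of other cells that could be read had higher shares in DOCA and Spironolactone than in Control. Such rises were common: 54.2% of all genes were higher without overlap in DOCA than in Control, and 53.8% in Spironolactone. In Finerenone 43.2% of all genes were lower without overlap than in DOCA. Of the 36 marker genes in the lists for kidney cell types and neighboring tissues, 8 could be paired with an identifier. The tubule markers thus could not be read, and the tissue label was not checked. Names came from a table that the study titles as differentially expressed genes between DOCA and Control. A marker that could be read was therefore likely to differ between these groups from the start, and its values are a description. The fibroblast markers Col1a1, Col3a1 and Dcn (3 of 3) summed to 0.00393% to 0.00720% of TPM in Control, 0.0352% to 0.0442% in DOCA, 0.0349% to 0.0471% in Spironolactone and 0.0154% to 0.0171% in Finerenone. The macrophage and leukocyte markers Csf1r, C1qa, Lyz2 and Ptprc (4 of 5) summed to 0.0218% to 0.0358%, 0.0713% to 0.101%, 0.0808% to 0.0825% and 0.0455% to 0.0521% in the same order. The fat marker Adipoq (1 of 3) was at 0.000418% to 0.000534% in Control at 0.00114% to 0.00148% in DOCA, at 0.000779% to 0.00137% in Spironolactone and at 0.000371% to 0.000702% in Finerenone. The part of these cells in the loss of share was not tested.

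The limit of 50 cut through a continuous order. The gene ranked 50 had a mean control TPM of 1652 ± 222 (SD, n = 4) and the gene ranked 51, the first left out, 1598 ± 117 (SD, n = 4). The mean share of rank 50 was 0.165% in Control, 0.119% in DOCA, 0.196% in Finerenone and 0.129% in Spironolactone, and that of rank 51 was 0.160%, 0.0872%, 0.160% and 0.0993%.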

How the data were processed

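The authors trimmed reads with Trim Galore 0.4.5, aligned them to the rat build rn6 (Rnor_6.0) with STAR 2.7.3a and quantified genes with RSEM, per the study's methods and the submitters' processing notes. The deposited tables hold RSEM estimated counts, of which 3.14% were not whole and which were rounded here before tests, and TPM, which the authors scaled for effective length and to the same total per library. The annotation is not given in the sources used here. Genes with near-identical copies can share reads, which makes their values uncertain. Very short transcripts have effective lengths that depend on the fragment lengths of each library, which moves their TPM. No per-sample columns were left unused. A metadata file was not used.

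The 50 genes and all lists were chosen with earlier results of these data known. Members with full values were the 10 highest in control TPM, the 10 largest falls and 5 largest rises in mean share from Control to DOCA, the 10 largest rises from DOCA to Finerenone, and ranks 50 and 51, plus the 5 largest gains outside the 50. Genes ranked 18 and 40 and Mt1 were added after their values were seen, as were ranks 20 and 22. Names for 1996 of 32623 identifiers were taken from a supplementary table of the study that lists symbols with TPM of 7 of these libraries. They were paired by equality of all 7 values within 0.01. The study titles the table as TPM of genes differing between DOCA and Control, so named genes were favored to differ there. That table was held only in part, and no value was taken from it. The RefSeq gene table (GRCr8) resolved 0 identifiers.

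Counts were tested with edgeR 4.0.16 (R 4.3.3; quasi-likelihood F test, TMM, counts above 4 in at least 3 libraries), and log2(TPM + 1) with limma 3.58.1 (trend, robust; TPM of at least 1 in at least 3 libraries), each in a fit of 14 libraries in 4 groups. Calls needed a Benjamini-Hochberg adjusted p below 0.05 over all genes and an absolute log2 difference of 0.5. Standard errors of edgeR values come from the F statistic. Scripts were tested on simulated data. Alternatives covered normalization, filters, DESeq2 1.42.0, limma-voom, pseudocount, libraries, a replicate block and each library left out. Those with a fixed length, without rank 1 and with genes chosen by counts were added after seeing the data. The labels do not say that the libraries of a group are separate animals, so p-values measure the spread between these libraries. Depth ranged from 7063158 to 10932887 counts per library.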

Additional observations from a re-analysis of the deposited data

Results flagged for a closer look

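Within groups of 4 libraries, a single library stood apart from the other 3 by Dixon's criterion in 4 of the 88 groups of values examined. Chance flags about 1 in 20 groups, or 4.4 of 88. The share of the gene ranked 1 was 4.89% of TPM in DOCA replicate 3, against 3.84% to 4.00% in the other DOCA libraries. The gene ranked 9 was at 1.24% of TPM in Spironolactone replicate 1, against 0.971% to 1.01%. The gene ranked 10 was at 0.981% in the same library, against 0.757% to 0.792%. The gene ranked 11 was at 1.04% in Finerenone replicate 2, against 0.906% to 0.929%.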

How the results depend on the processing

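The summed loss and return kept their direction under every alternative run. As a share of counts, the difference was -7.15 points in DOCA and -7.06 points in Spironolactone compared with Control, and 6.77 points in Finerenone compared with Spironolactone. With genes chosen by and followed as a share of counts the same differences were -7.80, -7.70 and 6.94 points. The loss in Spironolactone was -9.18 points with genes chosen over all 16 libraries, -8.64 with a fixed length and -8.85 without the gene ranked 1, and Finerenone minus Spironolactone was 7.39 with a fixed length. The cause was not tested. Leaving out each library in turn gave -11.1 to -9.22 points for DOCA and -12.0 to -10.1 for Spironolactone compared with Control, and 7.37 to 9.68 for Finerenone minus DOCA and 8.47 to 10.6 for Finerenone minus Spironolactone. The number of genes behind 80% of the change was 9 to 10, 7 to 8, 8 to 10 and 7 to 8 in the same order.

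With library size alone in place of TMM, edgeR called 11 of the 50 between Finerenone and DOCA and 13 between Finerenone and Spironolactone. With the adjusted p alone it called 32 and 31. Other alternatives gave counts within 1.5 times of the 22 reported. Leaving out 1 library gave 18 to 25 and 16 to 24 by edgeR, 9 to 11 and 7 to 9 by limma, and 0 between Spironolactone and DOCA in every case. Over 833 alternatives for 37 called values of named genes, 43 lost the call, 13 of them with library size alone, and 0 changed sign. The gene ranked 5 lost its edgeR call against DOCA without DOCA replicate 1 or 3 or Finerenone replicate 2, and against Spironolactone without Finerenone replicate 2 or 4 or Spironolactone replicate 1 or 2. Ranks 8 and 9 lost theirs against DOCA without DOCA replicate 3, and rank 8 also without Finerenone replicate 2. Against Spironolactone, ranks 6 and 9 lost theirs without Finerenone replicate 2 or Spironolactone replicate 2. By limma against Spironolactone, rank 7 lost its call without either of these, rank 25 without Finerenone replicate 1 or Spironolactone replicate 3, and rank 50 without Spironolactone replicate 1 or with all 16 libraries.

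Replicate numbers did not pair the libraries: over 19 pairs with the same number, deviations from the group means correlated between -0.0752 and 0.143, above 0.1 in 4. With a replicate block, edgeR called 22, 0 and 21 of the 50 for Finerenone vs DOCA, Spironolactone vs DOCA and Finerenone vs Spironolactone, and limma 11, 0 and 8. The share outside mitochondrially encoded genes was not run, because those genes could not be named. The lowest estimated count of any of the 50 genes in a library was 333. Reads shared by near-identical genes were not examined.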
